A study of Mus musculus with 6 samples.

Results

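The genes described here are 36 markers of the blood vessels of the brain, 26 of endothelial cells and 10 of mural cells, measured in the suprachiasmatic nucleus (SCN), the site of the central circadian clock in the hypothalamus. They were found by gene symbol in the deposited tables, which list 17645 genes in at least 1 library, and all 36 were listed in all 6 libraries. The libraries labelled r1r2V (replicates 1, 4 and 5) were read as the double knockout, with Nr1d1 and Nr1d2 (the genes of the clock repressors REV-ERBα and REV-ERBβ) deleted in the GABAergic neurons of those mice. The libraries labelled V (replicates 2, 3 and 4) were read as their control. All mice were female, of the C57BL/6 strain, and were killed in darkness at zeitgeber time (ZT, hours after lights on) 12 to 14; the sources used here give neither their age nor the driver of the recombinase, nor whether the V mice carry it. The SCN was punched from frozen brain sections with a needle, and each library came from RNA of 2 pooled SCN. Nothing in the labels says that pools came from separate animals, so the p-values reflect only how far these samples differ, which may be technical.

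Brain capillaries are lined by endothelial cells that form the blood-brain barrier. Tight junctions seal the gaps between these cells, and few vesicles cross them, so nutrients enter through transporters and many drugs are pumped back into the blood. Pericytes wrap the capillaries and smooth muscle cells wrap the arterioles; signals between endothelial and mural cells maintain the barrier. The deletion is aimed at neurons, so none of these cells is its labelled target.

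Total expected counts ran from 17040698 to 17566335 in the libraries labelled r1r2V and from 15729603 to 17780928 in those labelled V. Nr1d1, a targeted gene, had 196, 157 and 147 CPM (counts scaled to the size of the library) in r1r2V replicates 1, 4 and 5, against 56.7, 62.5 and 57.0 CPM in V replicates 2, 3 and 4. Nr1d2 had 229, 275 and 222 CPM in r1r2V, against 177, 179 and 168 CPM in V. In edgeR's quasi-likelihood test, used below with a threshold of 0.05, the adjusted p was 8.2e-05 for Nr1d1 and 0.0553 for Nr1d2. Only Nr1d1 passed there, while DESeq2 gave Nr1d2 an adjusted p of 3.3e-05. Both targeted transcripts were higher under the knockout label, although totals over all exons need not show a deletion of some of them. Every direction below therefore rests on the titles of the samples.

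The vessel genes spanned a wide range of levels in these punches. Their mean level over the 6 libraries, in FPKM (fragments scaled by transcript length and library size, which allows comparison between genes), ran from 65.6 FPKM for Ly6c1, an endothelial surface protein of mouse, to 0.848 FPKM for Myh11, the smooth muscle myosin heavy chain. The smallest count of any member in any library was 36 reads, for the pericyte gene Higd1b. Below Ly6c1 came Itm2a, a membrane protein of brain endothelium, at 47.0 FPKM, Ly6a, the surface antigen Sca-1, at 40.2 FPKM, and the pericyte genes Vtn (vitronectin) and Rgs5 (a regulator of G-protein signalling) at 31.7 and 29.1 FPKM. The tight junction protein claudin-5, encoded by Cldn5, stood at 20.8 FPKM. Of the endothelial transcription factors, Sox18 stood at 3.54 FPKM, rank 22 of 36, and Sox17 and Erg lay lower, at 1.87 and 1.46 FPKM (ranks 31 and 32). Steps between neighbours were small: in 3 of 35 neighbouring pairs did every library of the upper gene lie above every library of the lower one (Ly6c1 over Itm2a, Mfsd2a over Tjp1 and Abcg2 over Esam). The order is one of RNA and not of cells, and in bulk tissue fewer cells of a type and less RNA per cell cannot be told apart.

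**Figure D1:**
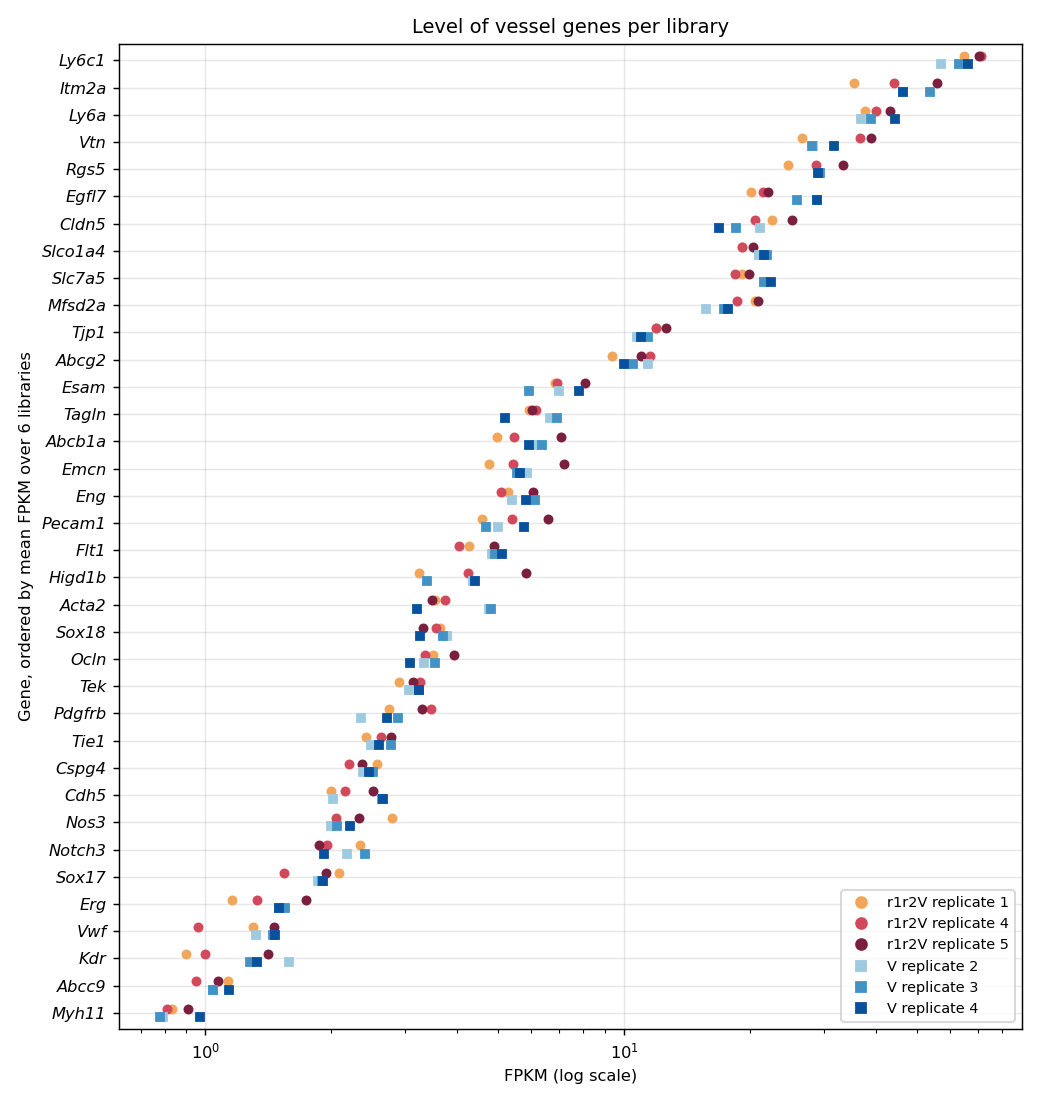
Level of the 36 vessel genes in each library, in FPKM on a log scale, ordered by the mean over 6 libraries; circles are r1r2V libraries and squares V libraries. The order runs from 65.6 FPKM for Ly6c1 to 0.848 FPKM for Myh11, and the points of one gene mostly overlap those of its neighbours.

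The comparison asks whether vessel transcripts differ when the REV-ERB genes are deleted in GABAergic neurons. No vessel gene passed the test. With edgeR's quasi-likelihood test and Benjamini-Hochberg adjustment over the 14438 genes tested, 0 of 36 members were called higher and 0 lower in the libraries labelled r1r2V, where 0.298% of all genes were called higher and 0.118% lower. DESeq2, which called 0.755% of all genes, also called 0 members. So did limma on FPKM, but its share of all genes is not given here, so its 0 cannot be read alone. At an unadjusted p under 0.05, 5 members (13.9%) stood out, against 7.58% of all genes: Egfl7, Mfsd2a, Slc7a5, Cldn5 and Tjp1.

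The intervals bounded these differences. Log2 fold changes (r1r2V minus V) ran from -0.39 for Egfl7 to 0.27 for Cldn5, with a median of -0.02 over the members and 0.01 over all genes tested. The 95% interval of every member lay inside a doubling or halving, as did that of 13521 of the 14438 genes tested. The lowest bound was -0.76, for Kdr, and the highest 0.64, for Higd1b. Endothelial members had a median of -0.02, with 11 positive and 15 negative, and mural members one of -0.02, with 4 positive and 6 negative. The groups did not overlap in 2 members that were higher in r1r2V (5.56%, against 6.87% of all genes) and in 3 that were lower (8.33%, against 7.63%), shares near those of all genes.

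**Figure D2:**
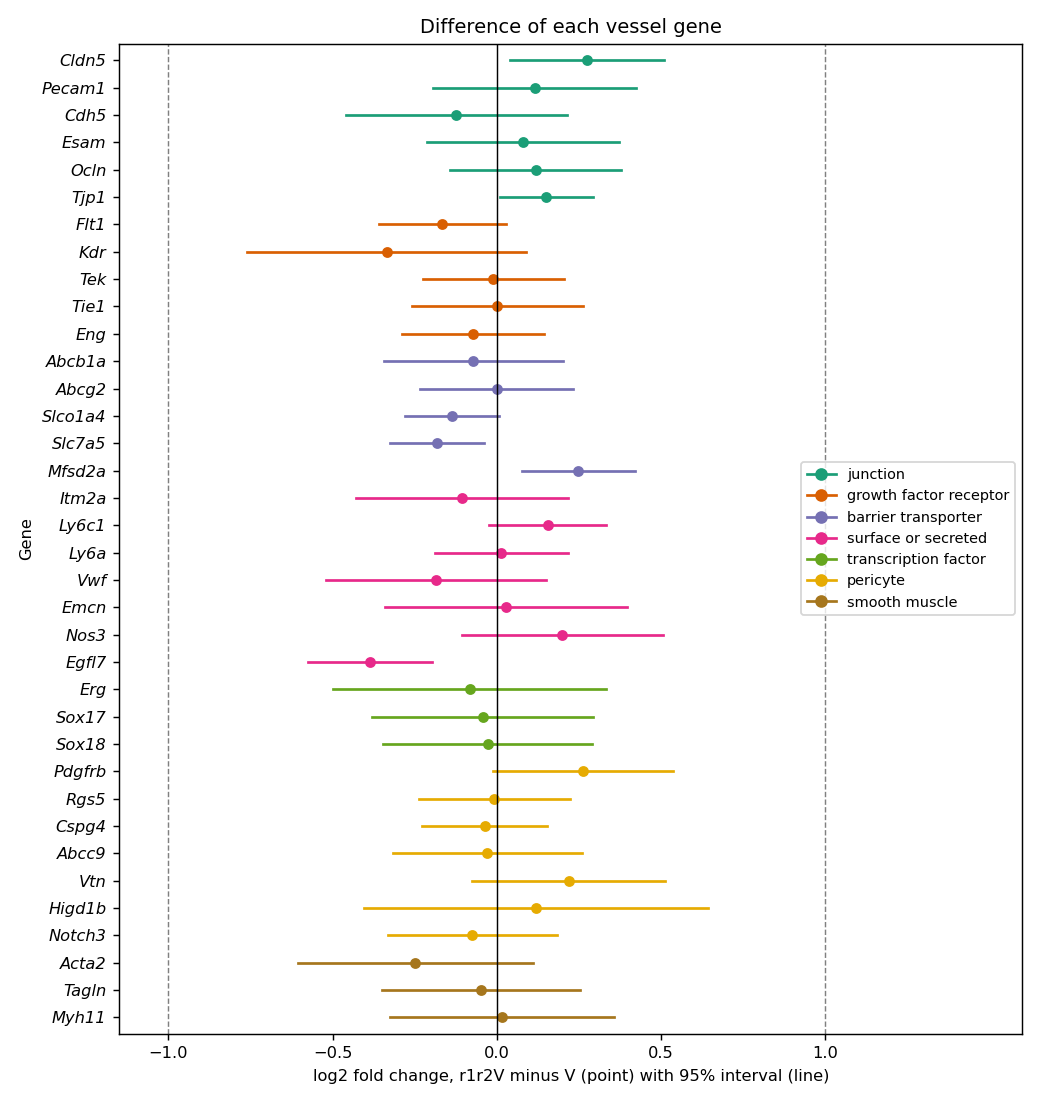
Log2 fold change of each vessel gene, r1r2V minus V (points), with its 95% interval (lines), coloured by role; dashed lines mark a doubling and a halving. All 36 intervals lie between the dashed lines, and the points run from -0.39 for Egfl7 to 0.27 for Cldn5.

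Among the 6 junction genes, 0 passed, and 5 had positive values (median log2 fold change 0.12). Cldn5, whose product seals the paracellular cleft, had 29.4, 27.5 and 33.5 CPM in r1r2V, against 28.0, 24.3 and 22.3 CPM in V. The lowest r1r2V library lay below the highest V library, and the log2 fold change of 0.27 (standard error 0.105) had an adjusted p of 0.586. Tjp1, which encodes the scaffold protein ZO-1 and is expressed far beyond vessels, had 80.5, 82.2 and 86.9 CPM in r1r2V, against 73.2, 77.1 and 74.6 CPM in V. Here all 3 r1r2V libraries lay above all 3 V libraries, by 0.15 on the log2 scale (adjusted p = 0.625). Values of Pecam1 (the adhesion molecule CD31), Ocln (occludin) and Esam (an adhesion molecule of endothelial contacts) were 0.12, 0.12 and 0.08, and that of Cdh5, the endothelial cadherin of adherens junctions, was -0.12.

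Of the 5 receptors of vascular growth factors, 4 had negative values (median -0.07), and 0 passed. Kdr, the main signalling receptor for VEGF-A, had 4.76, 5.40 and 7.64 CPM in r1r2V, against 8.52, 6.82 and 7.11 CPM in V. Replicate 5 of r1r2V lay among the V libraries and the other two below them, which gave a log2 fold change of -0.34 with an interval from -0.76 to 0.09 (adjusted p = 0.689). Flt1, which binds the same ligand and acts largely as a trap for it, had 26.1, 25.2 and 30.5 CPM in r1r2V, against 30.1, 30.2 and 31.5 CPM in V (log2 fold change -0.17). Tek and Tie1, the angiopoietin receptor and its partner, were at -0.01 and 0.0015, and Eng, a co-receptor for TGF-β family ligands, at -0.07.

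Transporters of the barrier went different ways, and 0 of 5 passed. Mfsd2a carries lysophosphatidylcholine with omega-3 fatty acids into the brain and restrains vesicle traffic in endothelial cells. Its values were 42.0, 38.8 and 43.6 CPM in r1r2V, against 32.6, 35.5 and 36.6 CPM in V. The groups did not overlap, and the log2 fold change of 0.25 (standard error 0.0772, interval 0.08 to 0.42) had an adjusted p of 0.465. Slc7a5, the large neutral amino acid transporter LAT1, lay the other way, with 64.8, 63.5 and 68.7 CPM in r1r2V, against 73.9, 73.2 and 76.5 CPM in V. Its groups did not overlap either (log2 fold change -0.18, standard error 0.0643, adjusted p = 0.546). The organic anion transporter gene Slco1a4 had 69.2, 70.7 and 75.3 CPM in r1r2V, against 77.1, 80.1 and 79.2 CPM in V (log2 fold change -0.14, adjusted p = 0.66). For the drug efflux pumps, P-glycoprotein gene Abcb1a was at -0.07 and Abcg2 at -0.00053. With the counts of its near copy Abcb1b added, Abcb1a was at -0.02 (adjusted p = 0.967), as was the median of the 5 transporters, which was -0.07 without that sum.

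Of the 7 endothelial surface and secreted proteins, 0 passed. Egfl7 encodes a protein that endothelial cells secrete into their matrix, and its gene hosts the endothelial microRNA miR-126, which these tables do not measure. It had 22.1, 24.0 and 25.1 CPM in r1r2V, against 32.3, 28.5 and 32.3 CPM in V. All r1r2V libraries lay below all V libraries, by 0.39 on the log2 scale (standard error 0.0842, interval -0.57 to -0.20). Egfl7 had the smallest p of the members (unadjusted p = 0.001), yet its adjusted p was 0.154 and ran from 0.0661 to 0.725 over the alternatives. It lies on chromosome 2 from 26581083 to 26592682 on the plus strand (GRCm38, the assembly that mm10 names). Its exons share 64 bases with Agpat2 on the other strand, and without stated strand reads there cannot be told apart. Agpat2 had 2.44, 1.95 and 2.62 CPM in r1r2V, against 2.60, 2.08 and 2.47 CPM in V. Exons of Egfl7 also share 264 bases with Gm20532 on the same strand. Gm20532 is not listed in these tables, and reads there cannot be told apart either.

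The other surface and secreted genes stayed closer to 0. Ly6c1 and Nos3, which encodes endothelial nitric oxide synthase, had log2 fold changes of 0.15 and 0.20, while Vwf (von Willebrand factor) was at -0.19. Emcn, a sialomucin of capillary and venous endothelium, was at 0.03 and Ly6a at 0.01. Ly6c1 shares 96.6% identity with Ly6a over 263 aligned bases and 98.6% with Ly6c2 over 288, so reads of these copies are divided by estimation. Ly6c2 held 3 to 7 reads per library, and with its counts added the value for Ly6c1 was 0.16. Counts of Ly6a were not added, so that sum does not address reads divided between Ly6c1 and Ly6a. Itm2a was the most uneven of the abundant genes in r1r2V, with 53.7, 68.2 and 86.4 CPM, against 71.3, 82.0 and 71.2 CPM in V (log2 fold change -0.11).

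**Figure D3:**
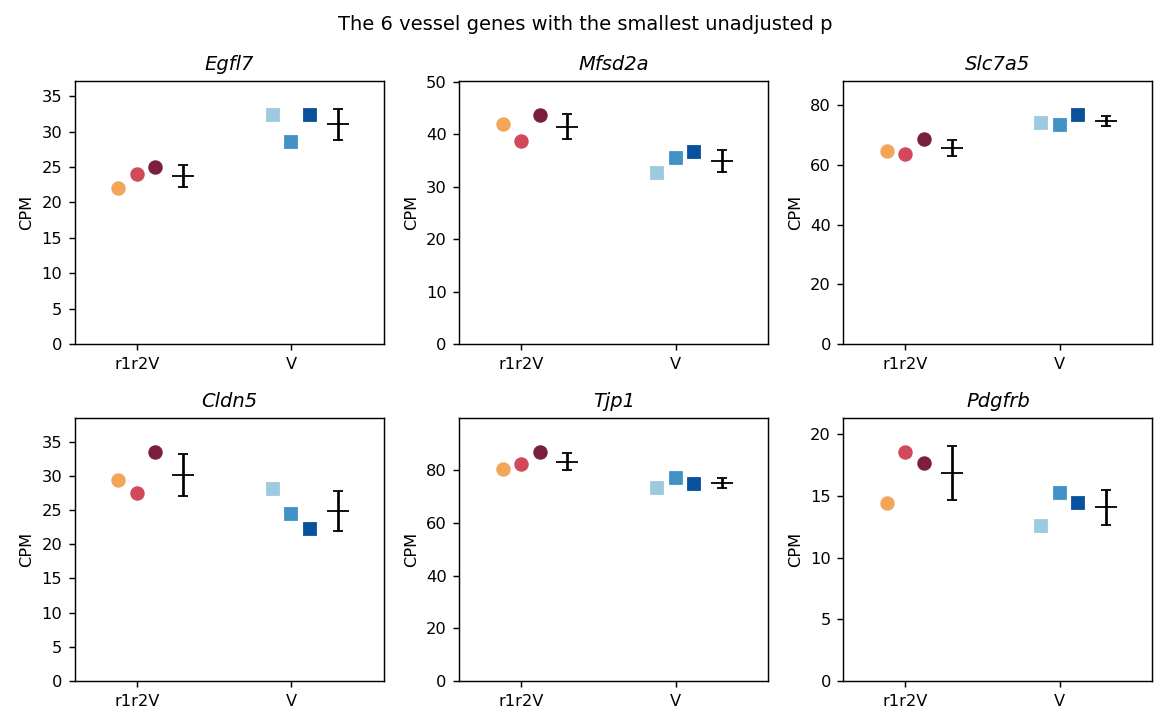
CPM of the 6 vessel genes with the smallest unadjusted p, per library (circles r1r2V, squares V; shades are replicates as in the plot of FPKM levels), with the mean and SD of 3 libraries as a black bar. Egfl7 and Slc7a5 lie lower in r1r2V, Mfsd2a and Tjp1 higher, and Cldn5 and Pdgfrb overlap; none passed after adjustment.

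The 3 endothelial transcription factors were all slightly below 0, at -0.08 for Erg, -0.04 for Sox17 and -0.03 for Sox18, and 0 passed. Erg, an ETS-family factor that maintains endothelial identity, had 3.54, 4.14 and 5.48 CPM in r1r2V, against 4.63, 4.68 and 4.63 CPM in V. The r1r2V libraries fell on both sides of the V group. These values rest on few reads, with 61, 72 and 94 in r1r2V, against 82, 83 and 73 in V. RefSeq promoter windows (GRCm38.p6, 250 bases before to 50 after a start) were given for 23 of the 36 members, 31 windows in all. The letters CAGGAAG, which hold the core that ETS factors bind, stood on either strand in 7 of these windows (22.6%), against 13.3% of all 32851 windows, and those 7 belonged to Abcg2, Egfl7, Emcn, Erg and Itm2a. The element of REV-ERB and ROR factors (TAGGTCA), the E-box (CACGTG) and the D-box (TTANGTAA) were in 0 of the 31 windows, against 2.61%, 7.15% and 2.32% of all windows. No match therefore overlapped one of another motif, and a match here is a description of letters and not a binding site. The bases before the Egfl7 starts (chr2:26580833-26581082 and chr2:26583615-26583864, plus strand) are printed because that gene had the smallest p, and those before an Erg start (chr16:95459349-95459598, minus strand) because Erg encodes an ETS factor; capitals mark CAGGAAG or its reverse complement.
Egfl7, first start: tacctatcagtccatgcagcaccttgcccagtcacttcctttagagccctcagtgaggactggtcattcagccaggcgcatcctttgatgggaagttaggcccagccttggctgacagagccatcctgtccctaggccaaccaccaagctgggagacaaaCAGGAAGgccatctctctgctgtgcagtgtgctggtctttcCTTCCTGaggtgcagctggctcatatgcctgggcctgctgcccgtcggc
Egfl7, second start: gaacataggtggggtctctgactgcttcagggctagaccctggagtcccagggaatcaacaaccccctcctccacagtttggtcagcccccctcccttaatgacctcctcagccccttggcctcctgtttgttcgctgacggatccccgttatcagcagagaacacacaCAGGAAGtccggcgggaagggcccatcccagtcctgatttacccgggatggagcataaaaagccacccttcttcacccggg
Erg: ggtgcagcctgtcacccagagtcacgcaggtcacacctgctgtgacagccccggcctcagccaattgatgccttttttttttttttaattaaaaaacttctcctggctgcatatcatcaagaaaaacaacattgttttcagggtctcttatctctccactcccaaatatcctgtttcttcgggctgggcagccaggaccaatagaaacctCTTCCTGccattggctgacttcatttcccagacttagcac
The first Egfl7 sequence holds a match on each strand, beginning at -90 and -49 from the start. The second holds 1 match, at -81, and the Erg sequence 1, at -40.

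Of the 7 pericyte genes, 0 passed (median log2 fold change -0.01). Rgs5 had 97.4, 116 and 135 CPM in r1r2V, against 117, 117 and 116 CPM in V. Its means differed by -0.01 on the log2 scale, while its SD was 18.7 CPM in r1r2V and 0.54 CPM in V (n = 3 each). A larger SD in r1r2V is not particular to Rgs5. On the log2 scale it held for 72.5% of tested genes that averaged 1 CPM or more. Pdgfrb, the receptor through which endothelial PDGF-B recruits pericytes, had 14.4, 18.6 and 17.7 CPM in r1r2V, against 12.5, 15.3 and 14.4 CPM in V (log2 fold change 0.26, standard error 0.122, adjusted p = 0.66). Vtn had 43.8, 61.4 and 65.2 CPM in r1r2V, against 47.1, 46.6 and 52.9 CPM in V, with replicate 1 of r1r2V below all V libraries and the others above them. Higd1b was at 0.12, Notch3, a receptor that mural cells need to mature, at -0.08, and Abcc9, a subunit of ATP-sensitive potassium channels, at -0.03. Cspg4, the proteoglycan NG2 that oligodendrocyte precursors also carry, was at -0.04.

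In the 3 smooth muscle genes 0 passed. Acta2, smooth muscle α-actin, had 8.65, 9.31 and 8.69 CPM in r1r2V, against 11.8, 11.8 and 7.93 CPM in V. V replicate 4 lay below all r1r2V libraries, and the log2 fold change was -0.25 (adjusted p = 0.72). Tagln, an actin-binding protein of contractile cells, showed the same low library with 8.70, 9.25 and 9.03 CPM in r1r2V, against 9.93, 10.2 and 7.74 CPM in V (log2 fold change -0.05). Myh11 had 5.34, 5.29 and 6.00 CPM in r1r2V, against 5.13, 5.07 and 6.28 CPM in V, so V replicate 4 held the highest value of this gene and the lowest of the other two.

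**Figure D4:**
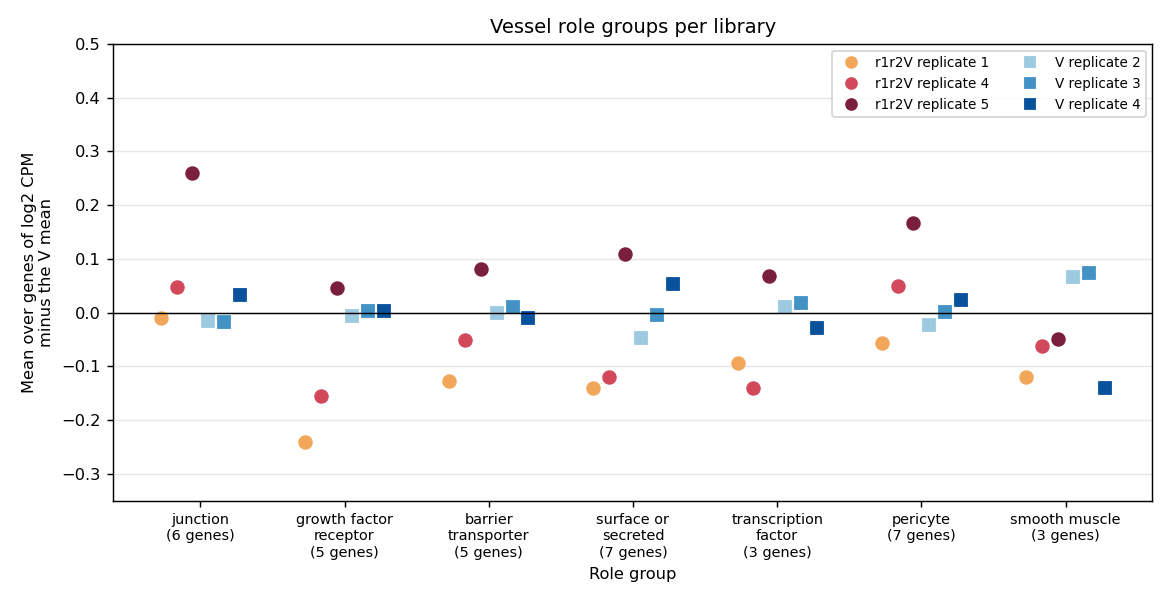
Mean over the genes of each role group of log2 CPM minus the V mean, per library; circles are r1r2V and squares V. The r1r2V libraries spread on both sides of the V libraries in most groups, with replicate 5 the highest r1r2V library in every group and the V smooth muscle values split by replicate 4.

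The r1r2V libraries lay on both sides of the V libraries in their endothelial level. Over the endothelial members, the mean of log2 CPM (with 0.5 CPM added) relative to the V mean was -0.12, -0.08 and 0.12 in r1r2V replicates 1, 4 and 5, against -0.02, -0.00095 and 0.02 in V replicates 2, 3 and 4. Mural members had -0.08, 0.02 and 0.10 in r1r2V, against 0.0033, 0.02 and -0.03 in V. Replicate 5 of r1r2V held the highest value of the 6 libraries for 14 of 26 endothelial members (53.8%), where it did so for 16.7% of all genes. Replicate 1 of r1r2V held the lowest value for 12 of 26 (46.2%), where it did so for 18.6% of all genes. Summed endothelial levels were 647, 678 and 761 CPM in r1r2V, against 690, 710 and 712 CPM in V, so the V range lay inside the r1r2V range. The SD of log2 CPM between libraries was larger in r1r2V than in V for 19 of 26 endothelial members (73.1%) and for 72.5% of all tested genes that averaged 1 CPM or more.

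Lists of other cells in the punch moved with some of these differences, and their part in them was not tested. The 10 markers of meningeal fibroblasts, all measured, had means of -0.21, 0.24 and 0.99 in r1r2V, against 0.0087, 0.19 and -0.20 in V. Their summed levels were 156 to 315 CPM in r1r2V and 165 to 195 CPM in V. Of these sums, Igf2 gave 39.2, 39.2 and 120 CPM in r1r2V, against 52.5, 71.2 and 44.6 CPM in V. Pdgfra, which also marks oligodendrocyte precursors, gave 65.5, 78.3 and 79.7 CPM in r1r2V, against 63.3, 61.0 and 69.9 CPM in V. All 10 had positive log2 fold changes (median 0.36), where 7578 of the 14438 genes tested did, and 0 of 10 passed. Slc6a13, a GABA and taurine transporter, had the largest, 0.93 (adjusted p = 0.257), with 4.47, 6.61 and 8.80 CPM in r1r2V, against 3.33, 3.61 and 3.49 CPM in V, and its groups did not overlap. Its adjusted p was 0.0436 without r1r2V replicate 1, and 0.0436 to 0.88 over the libraries left out in turn. The shared sign of the list did not hold in every such fit. The lowest log2 fold changes were -0.86 for Crabp2, -0.52 for Igf2, -0.21 for Col1a1 and -0.0044 for Col1a2, while the other fibroblast genes stayed positive. The 9 astrocyte and endfoot genes, of the glia whose processes sheathe brain vessels, had -0.10, 0.02 and 0.18 in r1r2V, against -0.05, 0.0016 and 0.04 in V, with sums of 1841 to 2211 CPM in r1r2V and 1964 to 2012 CPM in V. In both lists, as in the endothelial one, replicate 5 was the highest and replicate 1 the lowest r1r2V library. The 8 neuron genes had that order too, over a narrow range (-0.07, -0.05 and -0.04). Red blood cell genes had another order, with 0.40, -0.08 and -0.12 in r1r2V, against -0.29, 0.45 and -0.16 in V, so the libraries with most globin RNA were r1r2V replicate 1 and V replicate 3. For microglia and perivascular macrophages, 8 of 9 genes were tested and all 8 had positive log2 fold changes (median 0.16), with sums of 167 to 195 CPM in r1r2V and 162 to 173 CPM in V. With 1 library left out, Csf1r and Lyve1 reached -0.09 and -0.06. The 5 oligodendrocyte precursor genes had 0.01, -0.12 and 0.24 in r1r2V, against -0.0079, -0.07 and 0.08 in V. All 5 were highest in r1r2V replicate 5, and replicate 4 was the lowest r1r2V library of that list. The 7 choroid plexus and ependyma genes had 0.22, 0.21 and -0.19 in r1r2V, against 0.06, 0.02 and -0.08 in V. Medians over the same genes were 0.0052, -0.00054 and -0.12 in r1r2V, against 0.09, 0.11 and -0.05 in V. Ttr, at 6 to 48 reads per library, had 2.79, 2.53 and 0.35 CPM in r1r2V, against 0.68, 0.68 and 0.44 CPM in V. Its log2 fold change was 1.63 (adjusted p = 0.577), while 5 of the 7 genes had negative values. No list had a tested defining marker at 0 in any group.

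**Figure D5:**
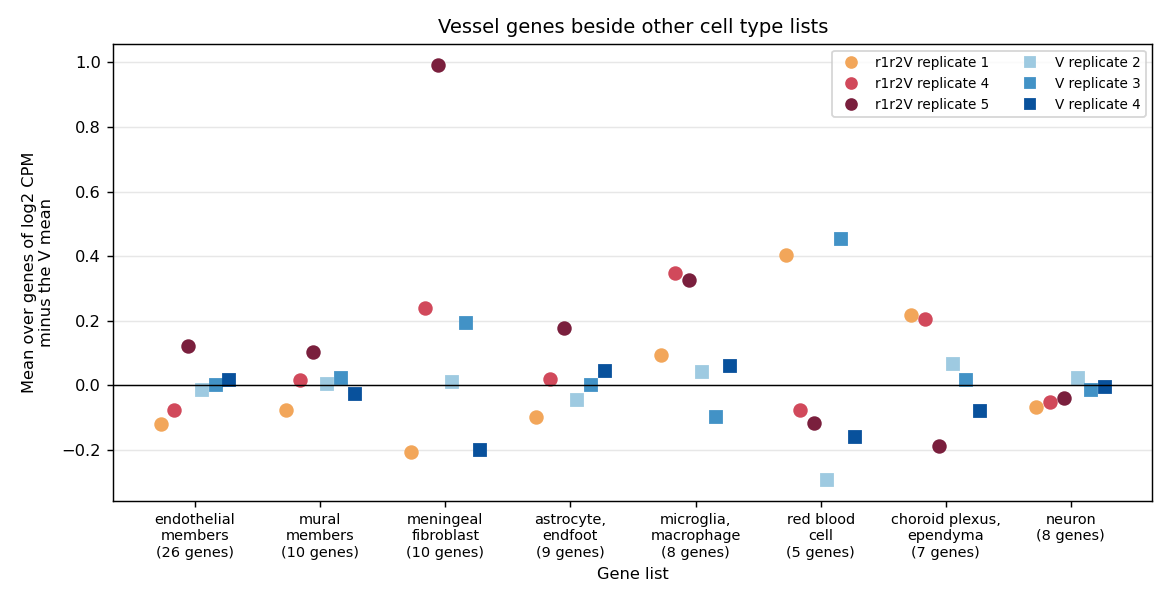
Mean over the genes of each list of log2 CPM minus the V mean, per library, for the vessel members and 6 lists of other cell types; circles are r1r2V and squares V. Meningeal fibroblast genes reach 0.99 in r1r2V replicate 5, where the endothelial and mural members stand at 0.12 and 0.10.

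Genes of the wider vessel programme gave no call either. In 5 further lists with 124 genes, 121 were tested, and 0 were called higher and 0 lower with edgeR, DESeq2 or limma. Over all genes, edgeR called 0.416% and DESeq2 0.755%, and the share for limma is not given here. An unadjusted p under 0.05 was found for 8 of the 121 (6.61%), against 7.58% of all genes. The median log2 fold change of the 121 was 0.04, and 117 of them (96.7%) lay within 0.5 of 0 on the log2 scale, as did 96.5% of all genes. Among 33 tested angiogenic ligands and co-receptors (median -0.02), the largest log2 fold change was that of Aplnr, the endothelial apelin receptor, at 1.56 (standard error 0.393, interval 0.68 to 2.43, unadjusted p = 0.00251, adjusted p = 0.246). Aplnr had 0.75, 1.38 and 1.69 CPM in r1r2V, against 0.51, 0.45 and 0.32 CPM in V, from 5 to 29 reads per library, and its groups did not overlap. It averaged under 1 CPM and was named after its values were seen. Dll4, a Notch ligand of arterial and sprouting endothelium, had 3.83, 1.84 and 2.27 CPM in r1r2V, against 1.92, 1.46 and 2.03 CPM in V, a log2 fold change of 0.55 with replicate 1 of r1r2V the highest library. Angpt2, a ligand of the TEK receptor, was at 0.23. In the list of 22 Wnt and transcription factor genes of the barrier (median 0.05), Foxc1 and Foxq1, forkhead factors of mural and meningeal cells and of brain endothelium, were at 0.39 and 0.36 (adjusted p = 0.701 and 0.684).

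Further transporters and barrier genes (29 tested, median 0.03) included Abcb1b, the other P-glycoprotein gene of mouse, and Plvap, a diaphragm protein of leaky endothelium that the mature barrier lacks. Abcb1b had 4.00, 3.16 and 2.68 CPM in r1r2V, against 2.31, 2.59 and 1.90 CPM in V (log2 fold change 0.53, adjusted p = 0.618). Plvap had 9.23, 6.32 and 10.4 CPM in r1r2V, against 12.4, 10.5 and 11.7 CPM in V (log2 fold change -0.41, adjusted p = 0.627). Neither pair of groups overlapped, and neither gene passed. Slc2a1, the glucose transporter GLUT1 of the barrier, is named here with its values already known. It had 141, 132 and 149 CPM in r1r2V, against 150, 164 and 178 CPM in V (log2 fold change -0.23, adjusted p = 0.536).

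Basement membrane genes (14 tested, median 0.02) and further mural genes (23 tested of 25, median 0.06) held 0 called genes in either list. Nid1, a linker of laminin and collagen IV, was at 0.28, and Sparc, a matrix protein that glia also make, at -0.15. Sparc had 1874, 1392 and 2407 CPM in r1r2V, against 2111, 2123 and 2066 CPM in V. Tbx18, a transcription factor of mural cells, had 1.39, 2.24 and 2.68 CPM in r1r2V, against 1.41, 1.63 and 1.27 CPM in V (log2 fold change 0.54). Ndufa4l2, a pericyte-enriched gene, was at 0.40 (adjusted p = 0.665).

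Cldn5 lies on chromosome 16 from 18776847 to 18778262 (plus strand), Mfsd2a on chromosome 4 from 122946850 to 122961194, Slc7a5 on chromosome 8 from 121881146 to 121907686 and Tjp1 on chromosome 7 from 65296165 to 65527850 (all minus strand, GRCm38). The members lie on 17 chromosomes, with 3 on chromosome 2 (Eng, Egfl7 and Sox18) and 3 on chromosome 11 (Pecam1, Vtn and Higd1b). Chromosome 14, which carries the targeted gene Nr1d2, holds 0 members. The position of Nr1d1, the other targeted gene, is not given here, so members linked to it are not named. Exons of 4 members (Eng, Nos3, Egfl7 and Tagln) overlap those of another gene in the tables on the other strand, and reads there cannot be told apart.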

How the data were processed

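RNA-seq values of 6 SCN libraries were used, 3 labelled r1r2V and 3 labelled V. The deposited tables give an expected count (an estimated read number per gene, 9.88% of values not whole at a tolerance of 0.001) and an FPKM, per the file headers; the authors scaled FPKM by transcript length and by mapped fragments. Tools named in the submitters' processing notes are RSEM 1.2.12, Bowtie2 2.2.5, DESeq2, HISAT2 2.0.4, Cufflinks 2.2.1, StringTie 1.0.4 and GATK, with build mm10; the sources used here give neither their roles nor the use of strand. Genes missing from a table were set to 0.

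Expected counts were rounded and filtered with filterByExpr (minimum count 10), which left 14438 genes, all 36 members among them. They were scaled by TMM and compared with edgeR 4.0.16 (R 4.3.3; glmQLFit and glmQLFTest, Benjamini-Hochberg over all genes tested, threshold 0.05), with no covariate. Standard errors and 95% intervals come from the F statistic, and CPM use the scaled library sizes. DESeq2 1.42.0, limma 3.58.1 on log2(FPKM + 1) and log2(FPKM + 0.1), other scalings and filters, summed gene copies and leaving out each library were alternatives. The fit was tested on simulated counts. Copies were searched with BLAST+ 2.17.0 (95% identity over 0.5 of the shorter transcript; 90% also listed).

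Replicate libraries differed beyond sampling noise (chi-square per degree of freedom 11.7 to 13.6 in r1r2V, 3.86 to 4.58 in V). That excess may be technical and does not show that the libraries are independent. Each was treated as 1 sample. The members, lists and tests were chosen with earlier results of these data known, so no set test was made. All 36 members are accounted for, and each other vessel list names its called genes and the 2 with the largest change at a mean of at least 1 CPM.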

Additional observations from a re-analysis of the deposited data

How the results depend on the processing

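No vessel member was called higher or lower under any of 14 alternatives, and none of the 5 other vessel lists held a call. No paired analysis was possible because replicate number 4 alone is common to both groups. Over all genes, DESeq2 called 69 higher and 40 lower, and with 1 library left out 19 to 52 were higher and 7 to 24 lower (43 and 17 with all 6). Counts over all genes are not given here for limma, the other scalings and filters or the summed copies. The absence of member calls under those settings therefore cannot be read alone. With 1 library left out, medians ran from -0.18 to 0.040 for barrier transporters, -0.16 to 0.067 for surface and secreted genes, -0.045 to 0.10 for pericyte genes and -0.17 to -0.026 for smooth muscle genes; the cause was not tested. Of 504 values of members under alternatives, 468 kept their sign and 36 in 19 members changed it, none of them called. Abcg2 was 1.8e-04 with DESeq2 and 9.8e-06 with RLE size factors. Tie1 was -0.0039 with upper-quartile scaling, -0.0031 on log2(FPKM + 1) and -0.0043 on log2(FPKM + 0.1). Leaving out 1 library gave ranges across 0 for Abcb1a (-0.24 to 0.040), Abcc9 (-0.072 to 0.033), Abcg2 (-0.069 to 0.090), Cspg4 (-0.085 to 0.012), Emcn (-0.16 to 0.15), Erg (-0.28 to 0.049), Esam (-0.024 to 0.17), Higd1b (-0.11 to 0.29), Itm2a (-0.30 to 0.048), Ly6a (-0.042 to 0.092), Myh11 (-0.049 to 0.12), Notch3 (-0.17 to 0.0043), Pecam1 (-0.036 to 0.24), Rgs5 (-0.13 to 0.10), Sox17 (-0.11 to 0.071), Sox18 (-0.093 to 0.015), Tagln (-0.17 to 0.023), Tek (-0.053 to 0.046) and Tie1 (-0.054 to 0.062). A missed threshold does not exclude a difference within the interval given.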
